A study of Mus musculus with 9 samples.

Results

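Of the 15836 autosomal regions that carried H3K27me3 in at least 1 of 8 chromatin immunoprecipitation sequencing libraries from mouse bone marrow progenitors, 3562 (22.5%) were called in exactly 1 library, and these single-library regions are described here. A region is the union of overlapping intervals from the 8 libraries, and it was a single-library region where intervals of only 1 library overlapped it, by at least 1 bp, on chromosomes 1 to 19. The members were therefore chosen by the interval calls themselves, and their number, width and summit height are given as descriptions with no test. Their position relative to shared regions, the genes they touch and the promoters they hold were not themselves used to choose them. These traits are still not independent of the choice. A member by rule overlaps no shared region, the shared regions come from the same calls, and overlap with genes and promoters also depends on width.

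Each library came from uncultured bone marrow cells that had been enriched with magnetic beads for the lineage-negative, c-Kit-positive fraction, which holds hematopoietic stem and progenitor cells. All mice were female, had undergone transplantation and were then treated for a month. In the WT groups the mice were C57BL/6 Dnmt3a+/+ crossed with the Mx1-cre line B6.Cg-Tg(Mx1-cre)1Cgn/J. In the RH groups they were Dnmt3a fl-R878H/+ crossed with the same line, so that Cre switches on an R878H allele of the DNA methyltransferase Dnmt3a. Every group thus carried Mx1-cre, whose promoter responds to interferon in blood cells and also in cells of other tissues. The treatments were vehicle (VEH) and metformin (MET), a diabetes drug of the biguanide class. With 2 libraries in each of the WT VEH, WT MET, RH VEH and RH MET groups, and no label saying that the replicates came from separate animals, a p-value given here covers the spread between libraries alone, and that spread may be technical.

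H3K27me3 is histone H3 trimethylated at lysine 27, the product of Polycomb repressive complex 2. It covers silenced developmental genes, often those with CpG-rich promoters, in broad domains, and in blood progenitors it also covers genes of other lineages. The enzyme of the complex can bind its own mark and extend it to neighbouring nucleosomes, so that signal is usually strongest at a core and declines towards the flanks of a domain. Against marker genes, the calls were as follows. Hoxd11, Pax6, Gata4 and the progenitor gene Gata2 lay in regions called in all 8 libraries. No region overlapped Actb, Gapdh, the pan-leukocyte gene Ptprc or the progenitor genes Runx1 and Lmo2. Of the other progenitor genes, Cd34 overlapped a region of 6 libraries and Kit, the receptor used for enrichment, a region of 5 libraries. Myb and Spi1, which encode transcription factors of progenitors and of myeloid cells, each overlapped 1 region, and in both cases it was a single-library region.

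Promoters inside single-library regions ranged from CpG-rich to CpG-poor, and 6 of them are shown because the genes recur below. Each sequence is the RefSeq window on GRCm38.p6 (the assembly of mm10) from 250 bases before to 50 bases after the start of transcription, written 5′ to 3′ on the gene's strand, and capitals mark CG dinucleotides, which read the same on both strands. Myb (chr10:21160935-21161234, minus strand, 40 CG) lay in a region of WT VEH 1 and is the most CpG-rich of the 6. Dchs2 (chr3:83127277-83127576, plus strand, 27 CG) lay in a region of RH MET 2, and Ptgs2 (chr1:150099781-150100080, plus strand, 16 CG) in a region of WT MET 1. S100a8 (chr3:90668821-90669120, plus strand, 4 CG) lay in a region of WT MET 2, Car15 (chr16:17838137-17838436, minus strand, 4 CG) in one of RH MET 1 and Csf2rb2 (chr15:78305672-78305971, minus strand, 3 CG) in one of WT VEH 2.
Myb: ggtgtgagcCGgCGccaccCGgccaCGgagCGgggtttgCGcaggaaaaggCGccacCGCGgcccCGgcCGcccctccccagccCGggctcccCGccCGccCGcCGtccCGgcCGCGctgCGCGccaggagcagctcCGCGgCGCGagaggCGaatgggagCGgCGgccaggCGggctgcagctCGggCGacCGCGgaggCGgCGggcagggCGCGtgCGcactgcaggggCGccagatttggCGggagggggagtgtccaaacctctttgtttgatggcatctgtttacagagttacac
Dchs2: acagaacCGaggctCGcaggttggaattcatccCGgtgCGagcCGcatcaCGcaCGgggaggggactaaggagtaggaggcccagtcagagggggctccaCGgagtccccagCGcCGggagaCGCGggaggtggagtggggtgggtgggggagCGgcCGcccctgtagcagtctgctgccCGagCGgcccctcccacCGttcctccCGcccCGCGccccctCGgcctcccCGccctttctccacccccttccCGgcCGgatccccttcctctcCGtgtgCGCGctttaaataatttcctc
Ptgs2: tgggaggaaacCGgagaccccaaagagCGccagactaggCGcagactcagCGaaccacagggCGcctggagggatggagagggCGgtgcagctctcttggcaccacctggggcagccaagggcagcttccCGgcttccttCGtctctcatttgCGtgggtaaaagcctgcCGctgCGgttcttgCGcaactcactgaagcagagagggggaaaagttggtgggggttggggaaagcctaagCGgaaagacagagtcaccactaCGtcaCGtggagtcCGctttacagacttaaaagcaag
S100a8: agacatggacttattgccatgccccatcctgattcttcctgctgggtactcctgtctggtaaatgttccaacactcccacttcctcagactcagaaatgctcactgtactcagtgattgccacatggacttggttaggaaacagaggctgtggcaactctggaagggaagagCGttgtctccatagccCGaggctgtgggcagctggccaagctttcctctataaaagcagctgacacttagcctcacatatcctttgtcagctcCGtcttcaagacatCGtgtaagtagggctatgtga
Car15: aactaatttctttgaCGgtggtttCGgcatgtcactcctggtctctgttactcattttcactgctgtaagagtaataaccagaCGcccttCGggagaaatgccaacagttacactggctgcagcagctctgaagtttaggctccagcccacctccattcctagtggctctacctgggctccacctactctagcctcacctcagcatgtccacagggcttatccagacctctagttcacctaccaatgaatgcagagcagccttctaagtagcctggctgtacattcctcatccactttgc
Csf2rb2: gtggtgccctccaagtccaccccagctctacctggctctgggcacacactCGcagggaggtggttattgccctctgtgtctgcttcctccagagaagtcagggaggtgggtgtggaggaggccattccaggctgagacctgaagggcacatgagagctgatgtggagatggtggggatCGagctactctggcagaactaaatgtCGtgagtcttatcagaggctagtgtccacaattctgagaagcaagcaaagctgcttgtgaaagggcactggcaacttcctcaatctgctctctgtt

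The number of single-library regions differed widely between the libraries. WT VEH 1 and WT VEH 2 had 201 and 418, which were 2.33% and 4.03% of the regions each of them called. WT MET 1 and WT MET 2 had 640 and 887, or 5.86% and 7.60% of their regions. RH VEH 1 and RH VEH 2 had 68 and 156, or 0.893% and 1.72%, and RH MET 1 and RH MET 2 had 645 and 547, or 6.03% and 5.36%. The 4 metformin libraries (680 ± 145, SD, n = 4) lay above the 4 vehicle libraries (211 ± 149, SD, n = 4) without overlap, whereas the WT libraries (537 ± 294, SD, n = 4) and the RH libraries (354 ± 285, SD, n = 4) overlapped. The libraries also differed in how many autosomal intervals they held. There were 11000 in WT VEH 1, 14056 in WT VEH 2, 14670 in WT MET 1, 14524 in WT MET 2, 10956 in RH VEH 1, 11479 in RH VEH 2, 15098 in RH MET 1 and 13930 in RH MET 2. The 3 libraries with the fewest intervals were also those with the fewest single-library regions.

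When each library was reduced to its 10956 intervals of greatest summit height, the separation by treatment was gone. The metformin libraries then had 342 to 446 single-library regions and the vehicle libraries 168 to 484. WT VEH 1, which had 201 among all intervals, had the most, with 484. RH VEH 1, which lost no interval, still had the fewest, with 168. The cut removed the lowest summits, where most single-library regions lie, and removed more of them from libraries with more intervals. Afterwards the median percentile of their summit height, within the own library, was 37.0 to 41.2 in the metformin libraries. In the vehicle libraries it was 15.9 to 38.4. The cut thus fell unequally on the libraries, and the overlap after it is no test of treatment. With intervals restricted to a summit height of at least 15, by contrast, the metformin libraries had 211 to 1074 and the vehicle libraries 1 to 189. That limit left unequal numbers of intervals, 7880 to 9813 in the metformin libraries and 4438 to 8068 in the vehicle libraries. Read numbers are unknown, so a difference in treatment and a difference in depth cannot be told apart in these counts, and a library without a call can still carry the mark below the caller's limit.

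**Figure D1:**
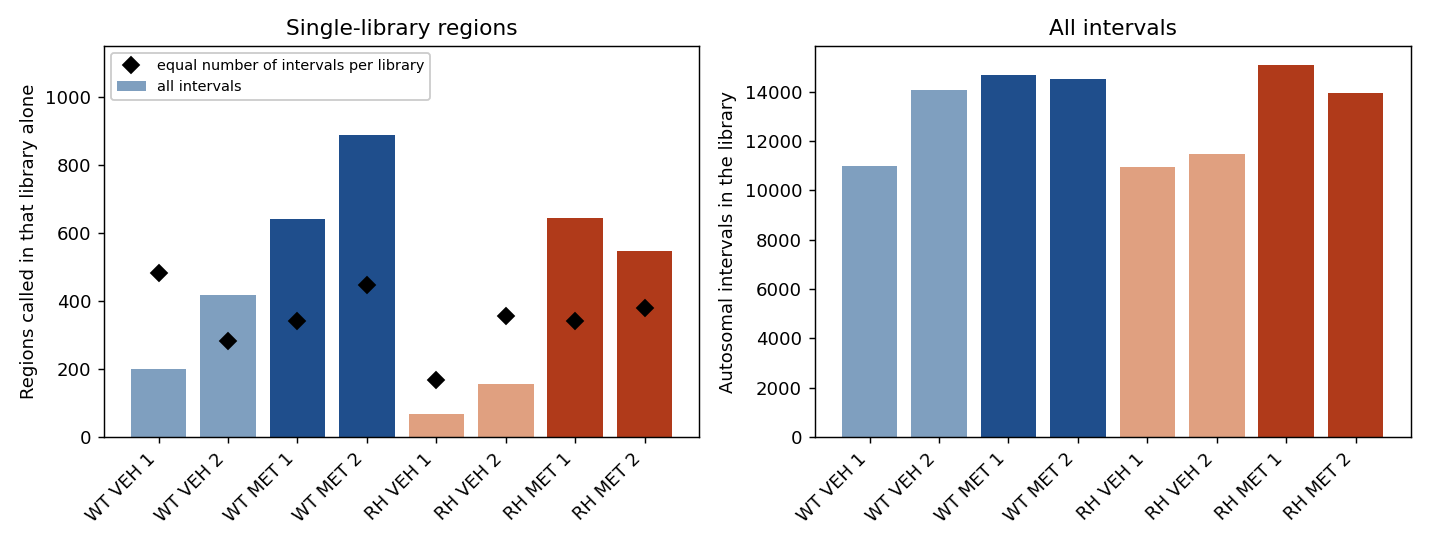
Left, bars give the number of autosomal regions called in that library alone, coloured by group, and diamonds give the same number when each library holds its 10956 intervals of greatest summit height. Right, bars give all autosomal intervals of the library. The metformin libraries have 547 to 887 regions against 68 to 418 with all intervals, and the diamonds of the treatments overlap.

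Single-library regions were narrow. Their median width was 3.6 kb (quartiles 2.4 and 5.4 kb), against 6.0 kb for regions called in 2 libraries and 16.0 kb for regions called in all 8. They made up 22.5% of the regions and covered 15.1 Mb, or 6.71% of the called length. The narrowest spanned 0.2 kb, 142 were at most 1 kb wide, and 128 (3.59%) were wider than 10 kb. By library the median width was 5.4 and 3.2 kb in WT VEH 1 and 2, 3.4 and 5.0 kb in WT MET 1 and 2, 1.8 and 5.0 kb in RH VEH 1 and 2, and 2.4 and 3.4 kb in RH MET 1 and 2. Replicates of a group thus differed as much as libraries of different groups, and the RH VEH pair spanned nearly the whole range. The widest single-library region of each library reached from 7.0 kb in RH VEH 1 to 22.8 kb in WT VEH 1.

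Their summits were low as well. The summit height, the authors' own score for each interval, was ranked within its library. The percentile was taken among all the library's intervals, those on chromosome X included. The median percentile of single-library regions was 15.9 and 20.1 in WT VEH 1 and 2, 15.4 and 17.5 in WT MET 1 and 2, 18.1 and 11.1 in RH VEH 1 and 2, and 23.0 and 19.7 in RH MET 1 and 2. Intervals in regions called in all 8 libraries had medians of 68.1 to 79.9 in the same libraries. The step from 1 calling library to 2 was small, from a median of 17.5 to 20.4 over all members. Only 247 of the 3562 (6.93%) stood above the median interval of their own library, and RH MET 1 alone had 81 of them. By treatment the library medians were 18.9 ± 3.22 in MET and 16.3 ± 3.87 in VEH (SD, n = 4 each), and by genotype 18.0 ± 5.02 in RH and 17.2 ± 2.12 in WT (SD, n = 4 each), and the libraries of both pairs overlapped.

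**Figure D2:**
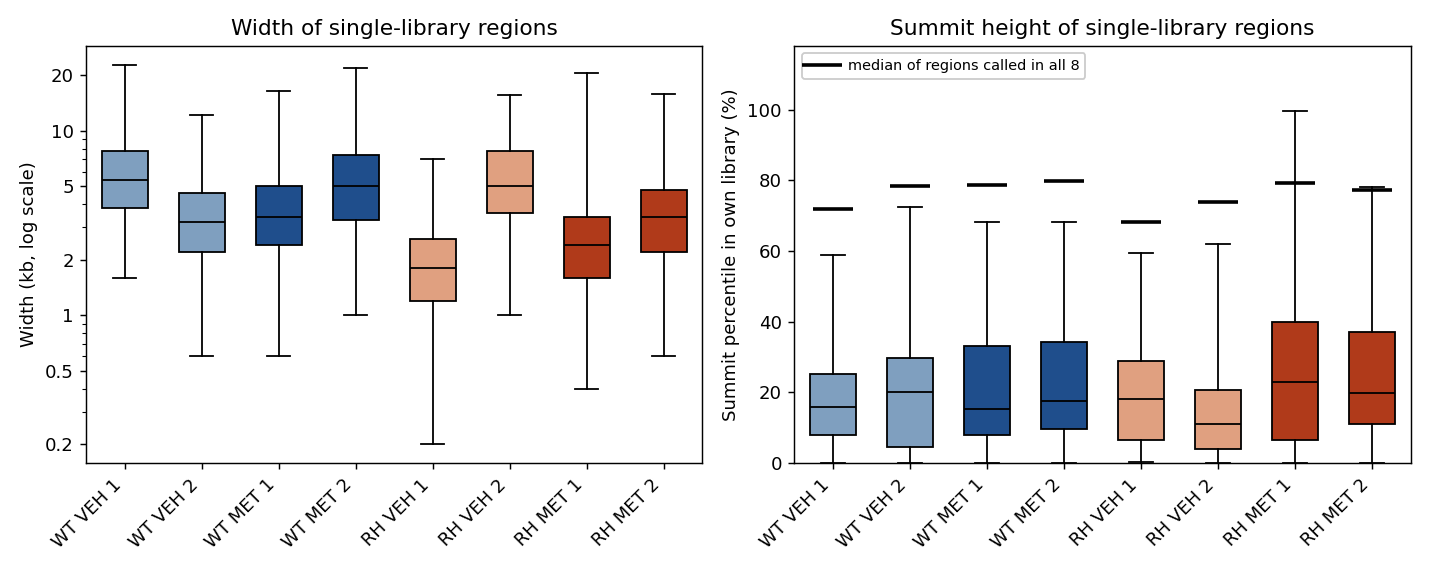
Boxes give the quartiles and the median, and whiskers the full range, of the width in kb on a log scale (left) and of the summit percentile within the own library (right) of the single-library regions of each library. Black marks on the right give the median of intervals in regions called in all 8 libraries, 68.1 to 79.9, far above the medians of 11.1 to 23.0 for single-library regions.

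3 members stood above the 75th percentile of their library, and all were from RH MET libraries. The highest, by a wide margin, was a 20.6 kb region over Car15 in RH MET 1 (chr16:17818601-17839200), with a summit height of 115 at percentile 99.6. Car15 encodes a membrane-bound carbonic anhydrase, and its CpG-poor promoter, shown above, lies wholly inside the region. The second highest single-library region of RH MET 1 had a height of 28 (Wdfy2, percentile 73.9), and the highest of the other 3 metformin libraries had heights of 23 to 33. None of the other 7 libraries held an interval at Car15. The nearest region of 2 or more libraries lay 67.4 kb away (chr16:17744201-17751200), where WT VEH 2, WT MET 1, RH MET 1 and RH MET 2 had heights of 13, 17, 13 and 12. The nearest region of all 8 lay 69.2 kb away (chr16:17908401-17922200), and there RH MET 1 had a height of 126, within the 49 to 128 of all libraries. The other 2 members were a 7.8 kb region of RH MET 2 over the CpG-rich start of Dchs2, a large cadherin (chr3:83125401-83133200, height 33, percentile 78.2), and a 1.6 kb region of RH MET 2 in Relb, which encodes an NF-kappa-B subunit (chr7:19619201-19620800, height 32, percentile 77.3).

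**Figure D3:**
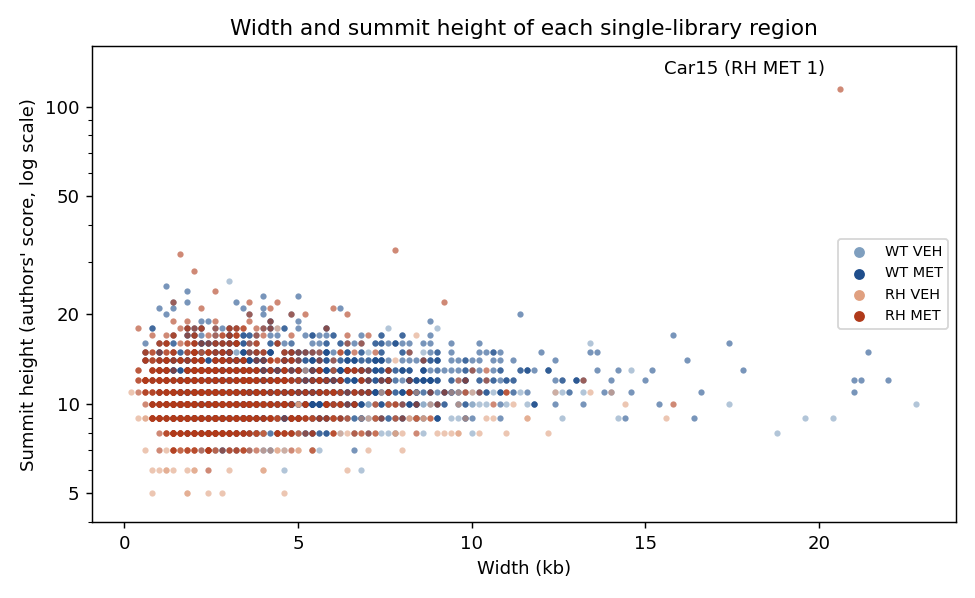
Each point is 1 of the 3562 single-library regions, with its width in kb and the authors' summit height on a log scale, coloured by group. The region over Car15 in RH MET 1, at 20.6 kb and a height of 115, stands apart from all others, which do not exceed a height of 33.

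The widest and the highest member of each library show what kind of place was called. In WT VEH 1 they were a 22.8 kb region with the promoter of Mfsd13a, a major facilitator family gene (chr19:46340601-46363400, height 10), a 20.4 kb region inside Asic2, an acid-sensing ion channel (chr11:81743401-81763800, height 9), and a 7.6 kb region with the promoter of S1pr2, a sphingosine-1-phosphate receptor (chr9:20972001-20979600, height 18). In WT VEH 2 the second widest, 11.2 kb, held the promoter of Csf2rb2, a receptor subunit for interleukin-3 (chr15:78305201-78316400, height 11), and the highest, 3.0 kb, lay in Rmi2, of the complex that resolves recombination intermediates (chr16:10832801-10835800, height 26). A wide and low member was the 16.4 kb region at Col6a5, a collagen VI chain, in WT MET 1 (chr9:105908001-105924400), with a height of 9 at percentile 2.86. A narrow and higher one was the 1.8 kb region at the start of Hip1r, an adaptor of clathrin and actin (chr5:123972001-123973800), with a height of 22 at percentile 66.8.

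In WT MET 2 the widest member spanned 22 kb at Zdhhc11, a palmitoyltransferase gene (chr13:73967801-73989800, height 12), 0.2 kb from a region of all 8 libraries, and a 1.8 kb member held the promoter of Zc3hav1l (chr6:38297801-38299600, height 24). In RH VEH 1 the highest was a 0.8 kb region in Gdf15, a stress-induced cytokine of the TGF-beta family (chr8:70630801-70631600, height 14), and the widest lay in Elapor1 (chr3:108461001-108468000, 7.0 kb, height 9). RH VEH 2 had a 4.4 kb region in the sialyltransferase gene St3gal3 (chr4:117994801-117999200, height 18) and a 14.4 kb region at Lrit3 (chr3:129769801-129784200, height 10). The second widest member of RH MET 1, 9.2 kb, spanned parts of the histone demethylase gene Jmjd1c and of Reep3 (chr10:67093801-67103000, height 22). The widest of RH MET 2, 15.8 and 13.2 kb, lay in Me3, a mitochondrial malic enzyme (chr7:89837601-89853400, height 10), and in Adamts17, a secreted metalloproteinase (chr7:67138801-67152000, height 12), 199.6 and 289.8 kb from the nearest shared region.

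Single-library regions lay close to regions called in all 8 libraries. The median distance was 49.0 kb, and 699 of 3562 (19.6%) lay within 10 kb. For comparison, every open position was enumerated on the 200 bp grid of the calls, that is each place between the first and last region of a chromosome where an interval of a member's own width touches no region of 2 or more libraries. Of these positions, 4.55% were within 10 kb, with a median distance of 231.6 kb, so that the members were 4.31 times as frequent there as the open positions. The excess grew towards the shared regions. Within 2 kb lay 6.79% of members and 1.08% of positions, within 5 kb 12.4% and 2.44%, and within 50 kb 50.6% and 18.2%. Beyond 500 kb the order was turned, with 3.34% of members and 30.1% of positions. These are reference values without a test, and assembly gaps and repeats were not removed from the open positions.

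**Figure D4:**
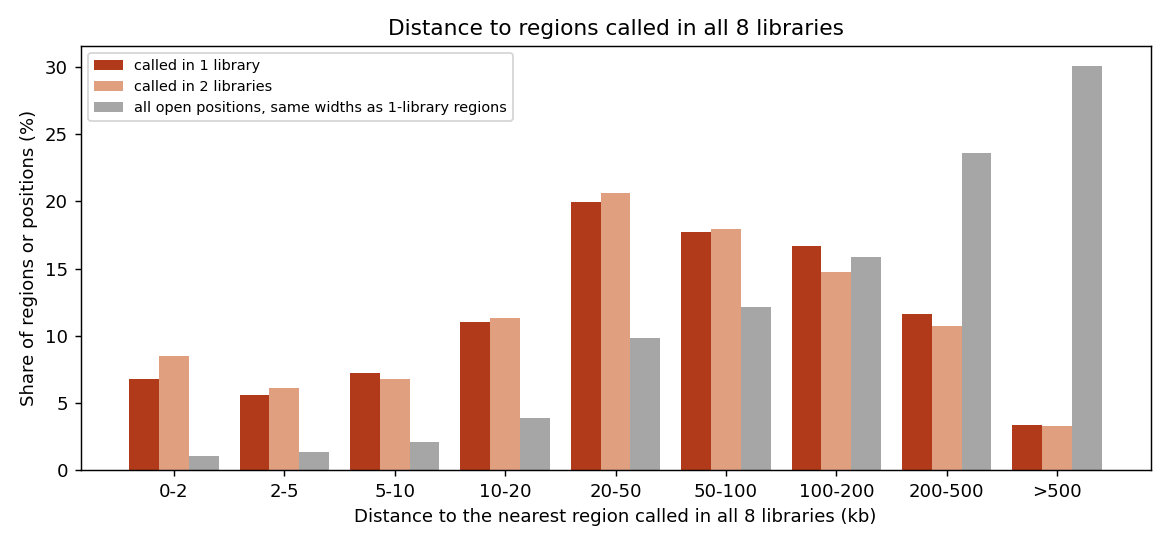
Bars give the share of single-library regions, of 2-library regions and of all open positions of the same widths in bins of distance, in kb, to the nearest region called in all 8 libraries. Single-library and 2-library regions have nearly the same distribution, and both exceed the open positions in each bin up to 100 kb.

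Every library showed the excess. The share within 10 kb was 20.9% and 18.4% in WT VEH 1 and 2 (42 and 77 regions), 16.4% and 21.9% in WT MET 1 and 2 (105 and 194), 25% and 15.4% in RH VEH 1 and 2 (17 and 24), and 20.0% and 20.3% in RH MET 1 and 2 (129 and 111). The lowest and the highest share came from the same group, RH VEH, which had the fewest members. Relative to the open positions of its own widths, each library stood 3.44 to 5.35 times higher. Between genotypes the share differed by 0.771 points (RH 20.2 ± 3.93% against WT 19.4 ± 2.47%, SD, n = 4 each, exact permutation test, two-sided, p = 0.8, adjusted 0.9). Metformin libraries differed from vehicle libraries by -0.283 points (19.6 ± 2.31% against 19.9 ± 4.07%, SD, n = 4 each, exact permutation p = 0.914, adjusted 0.914). Neither difference exceeded the spread between libraries, and the sign of each turned under several settings.

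Regions of more libraries also lay close to those of all 8, so closeness was no trait of single-library regions alone. Over all regions, the share within 10 kb was 21.4% for 2 libraries and 25.4% for 7. It was 23.4% for all-8 regions, measured to the next all-8 region, and 19.6%, the lowest of the classes, for single-library regions. Within each library, 2-library regions lay within 10 kb of an all-8 region in 22.4 ± 3.86% of cases and single-library regions in 19.8 ± 3.06% (SD, n = 8 libraries). The paired difference was -2.59 points, lower in 6 of 8 libraries (exact sign-flip permutation test, two-sided, p = 0.0547, adjusted 0.188), and it did not pass. With 5 kb as the limit it was -2.55 points and passed (exact sign-flip permutation p = 0.00781, adjusted 0.0352). That p is the smallest the 8 libraries allow, and it passed only because another of the 9 tests had the same p. With 50 kb it was -1.64 points and did not pass (exact sign-flip permutation p = 0.18, adjusted 0.404). Distances run from edge to edge and 2-library regions are wider, and the part of width was not tested. 2-library regions enter the value of both libraries that call them, so the 8 values are not fully independent.

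The nearest region of 2 or more libraries was closer still, at a median of 16.4 kb, and 288 members (8.09%) lay within 1 kb of one and 494 (13.9%) within 2 kb. That neighbour was usually called in the member's own library too: in 60.3% of cases in RH VEH 1 and 88.8% in WT MET 2. The same libraries called 61.5% and 87.9% of all shared regions. For 663 members (18.6%) the nearest other single-library region came from the same library, where the libraries' shares of the members alone would give 17.0%.

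Single-library regions touched protein-coding genes about as often as open positions did. A gene span was overlapped by 1502 members (42.2%) and by 42.6% of open positions, and 39 members touched more than 1 gene. The other 2060 had a median distance of 25.9 kb to the nearest protein-coding gene. By library the share was 45.3% and 39.5% in WT VEH 1 and 2, 37.0% and 40.7% in WT MET 1 and 2, 45.6% and 44.9% in RH VEH 1 and 2, and 44.8% and 47.2% in RH MET 1 and 2. The RH libraries (45.6 ± 1.10%, SD, n = 4) were higher than the WT libraries (40.6 ± 3.46%, SD, n = 4) by 4.99 points, with WT VEH 1 inside the RH range. The difference did not pass (exact permutation test, two-sided, p = 0.0857, adjusted 0.193), and it was -11.0 points with a minimum summit height of 15, where RH VEH 1 kept 1 member. Metformin and vehicle libraries differed by -1.38 points (42.4 ± 4.48% against 43.8 ± 2.90%, SD, n = 4 each, exact permutation p = 0.629, adjusted 0.9).

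Gene overlap was higher for regions called in more libraries, apart from the step from 4 to 5. It was 44.2% for 2 libraries, 45.6% for 3, 51.1% for 4, 50.8% for 5, 53.5% for 6, 59.7% for 7 and 82.4% for all 8. Per library, single-library regions were at 43.1 ± 3.57% (SD, n = 8). All-8 regions were at 82.4%, the same set and value for every library, so only the single-library share varied. The difference was -39.3 points and negative in 8 of 8 libraries (exact sign-flip permutation test, two-sided, p = 0.00781, adjusted 0.0703). That p is the smallest the test allows, and adjusted over 9 tests it cannot pass alone. With a fixed value on the all-8 side, it says only that the share of every library lay below 82.4%. Width moves with this result: the midpoint of a region lay in a gene for 38.5% of single-library regions, 38.1% of 2-library regions and 56.0% of all-8 regions. Against 2-library regions the difference was -1.77 points, lower in 5 of 8 libraries (exact sign-flip permutation p = 0.0625, adjusted 0.188), and did not pass.

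A whole promoter window of 300 bases lay inside 200 members (5.61%) but in only 2.05% of open positions. The share was 14.4% and 5.02% in WT VEH 1 and 2 (29 and 21 members), 4.84% and 4.62% in WT MET 1 and 2 (31 and 41), 2.94% and 5.13% in RH VEH 1 and 2 (2 and 8), and 6.82% and 4.39% in RH MET 1 and 2 (44 and 24). WT VEH 1, whose members were also the widest, stood apart, and without its members the share was 5.09%. For open positions of its widths the share was 2.997%. Among regions called in 2 libraries 9.51% held a promoter window, among those of 4 libraries 14.4% and of all 8 54.6%, with width rising in step.

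The CpG content of the covered promoters differed between libraries. The members held 225 promoter windows of 207 genes, 1.12% of the 20085 windows of autosomal protein-coding genes in the RefSeq table, which covers 16457 of 20665 such genes. Their median was 9 CG dinucleotides per window, against 14 over all windows, 11 in windows outside every region, 10 in 2-library regions and 18 in all-8 regions. At least 15 CG were found in 35.1% of windows in members, in 48.1% of all windows and in 59.6% of those in all-8 regions. By library the median was 7 and 6 CG in WT VEH 1 and 2 (33 and 22 windows), 14 and 4.5 in WT MET 1 and 2 (35 and 44), 8.5 and 2.5 in RH VEH 1 and 2 (2 and 8), and 14 and 7 in RH MET 1 and 2 (53 and 28). WT MET 1 and RH MET 1, with 48.6% and 49.1% of windows at 15 CG or more, were thus at the level of all windows, and the other 6 libraries were below it. The CpG-rich promoters of Myb and Dchs2 lay above the upper quartile of the members, 20 CG, and those of S100a8, Car15 and Csf2rb2 below their median.

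**Figure D5:**
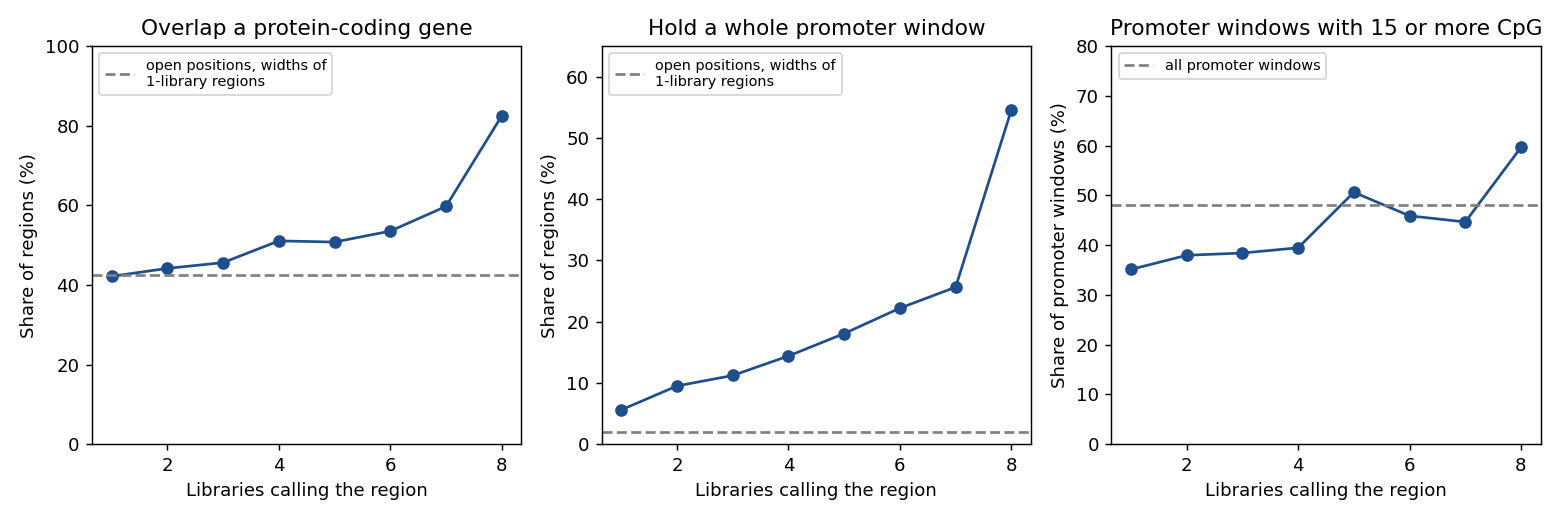
Points give, by the number of libraries calling a region, the share of regions overlapping a protein-coding gene (left), the share holding a whole promoter window (middle) and the share of those windows with 15 or more CG dinucleotides (right). Dashed lines give open positions with the widths of single-library regions (left and middle) or all promoter windows (right). Single-library regions lie at the line for genes (42.2% against 42.6%), above it for promoters (5.61% against 2.05%) and below it for CpG-rich windows (35.1% against 48.1%).

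In all, 1197 of 20665 autosomal protein-coding genes (5.79%) overlapped a single-library region, and 783 of them overlapped a region of 2 or more libraries as well. The remaining 414 were touched by single-library regions alone, 394 of them by 1 region and 20 by 2 or 3. The median span of these genes was 24.7 kb, against 17.5 kb over all genes. The counts per gene list that follow are read beside the 5.79% of all genes, and none of them was tested. Per Mb of gene span, the lists with a touched gene held 2.12 (developmental regulators) to 6.70 (inflammatory genes) single-library regions, against 1.58 over all genes. An overlap of 1 bp was enough, so region width adds to the reach of each gene. This raises the rate per Mb for lists of short genes, and it is not read as an excess there.

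Genes of stem cells and self-renewal were touched in 9 of 30 cases. Their median span, 95.7 kb, was several times that of all genes, and per Mb of gene span they held 3.13 single-library regions. Myb and Slamf1 had no other region. The region of Myb, a transcription factor that progenitors need, covered its promoter in WT VEH 1 (chr10:21155801-21162000, 6.2 kb, height 13, percentile 40.7), 717.2 kb from the nearest all-8 region. The region of Slamf1, which encodes the stem cell surface protein CD150, lay at the edge of the gene in RH MET 2 (chr1:171767001-171775200, 8.2 kb, height 11, percentile 19.7). The other 7, among them Erg, Hlf and the growth regulator Hmga2, also overlapped shared regions. Hmga2 had 3 single-library regions, in WT MET 2, RH MET 1 and RH MET 2, with heights of 21, 12 and 14.

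Of 28 myeloid genes, S100a8 and Spi1 were touched, both by single-library regions alone. S100a8 encodes a calcium-binding protein of neutrophils and monocytes, and a 9.4 kb region of WT MET 2 covered it with its promoter (chr3:90661201-90670600, height 11, percentile 9.67). Spi1, which encodes the transcription factor PU.1, held an 8.2 kb region of RH MET 1 (chr2:91092601-91100800, height 15, percentile 51.3). No whole promoter window of the RefSeq set lay inside it, but that set does not cover every gene or start. Of 22 erythroid and megakaryocyte genes, 2 were touched: the carbonic anhydrase gene Car2, by a 2.4 kb region of RH MET 1 alone (chr3:14885401-14887800, height 12), and Sptb, the red cell beta-spectrin, by 3 regions beside its shared ones. Of 30 lymphoid genes, 2 were touched. Klrb1c, the natural killer cell receptor NK1.1, had a 1.8 kb region of RH MET 2 alone (chr6:128777401-128779200, height 9), and Ebf1, the B cell factor, had 5 single-library regions from WT VEH 2, WT MET 1, RH VEH 2 and RH MET 2 beside 7 shared ones.

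Among 29 inflammatory genes, Nfkb1 and Ptgs2 were touched by single-library regions alone and the inflammasome gene Nlrp3 beside a shared region. The region in Nfkb1, which encodes an NF-kappa-B precursor, came from RH MET 1 (chr3:135688401-135692000, 3.6 kb, height 19, percentile 63.0). The region of Ptgs2, the inducible cyclooxygenase, covered its promoter in WT MET 1 (chr1:150098801-150100400, 1.6 kb, height 10, percentile 7.88). Both lay far from any all-8 region, at 1438 and 888 kb. Of 29 genes of the methionine and one-carbon cycle, 5 were touched. Bhmt, which remethylates homocysteine with betaine, had a 2.8 kb region of WT MET 2 alone (chr13:93632001-93634800, height 15, percentile 41.2). Aldh1l2, Gldc and Sardh had 1 each beside shared regions, and the regions of these 4 genes came from metformin libraries, which hold 2719 of the 3562 members.

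Classic Polycomb targets were covered by shared regions. None of 39 Hox genes and 2 of 50 developmental regulators, Pax3 and Tbx15, overlapped a single-library region, and all of these genes overlapped a shared one. The Hox genes span only 0.300 Mb. The regions at Pax3 (WT MET 1, 7.6 kb, height 12) and Tbx15 (RH MET 1, 3.2 kb, height 10) lay 2.2 and 0.2 kb from an all-8 region. Of 17 imprinted genes 3 were touched, Igf2r, Kcnq1 and Slc22a18, each beside shared regions. No single-library region overlapped any of 28 housekeeping genes, 29 complex I genes, 27 genes of histone and DNA methylation, 16 cell cycle inhibitors and tumour suppressors, 20 stromal and endothelial genes or 14 genes of mast cells, basophils and eosinophils. These lists are short in gene span, from 0.158 Mb for the mast cell list to 1.62 Mb for the methylation list, against 1002 Mb over all genes.

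Among gene families gene span differed, so the number of single-library regions per Mb of span is given beside it, against 1.58 over all genes. Olfactory receptors were touched in 10 of 1104 cases (0.906%, 4.71 per Mb) and vomeronasal receptors in 1 of 354 (0.282%, 0.274 per Mb), both with a median span below 1 kb. Potassium channels, with a median span of 34.5 kb, were touched in 15 of 92 cases (16.3%, 3.09 per Mb), and collagens, with 110.4 kb, in 11 of 42 (26.2%, 2.85 per Mb). Solute carriers were touched in 31 of 362 cases (8.56%, 1.84 per Mb) and zinc finger genes in 14 of 388 (3.61%, 1.37 per Mb). Interleukins and their receptors were touched in 4 of 78 cases (5.13%, 2.06 per Mb), below the share of all genes. So were ribosomal protein genes, in 2 of 91 (2.198%, 2.07 per Mb). An overlap of 1 bp was enough, so region width adds to the reach of every gene and raises the rate of short genes. Rates above 1.58 in families of short genes are therefore not read as an excess. The 26 of 67 protocadherins rest on only 5 distinct regions, because their gene models overlap.

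Several long genes collected many single-library regions, and the examples were chosen after their values were seen. Sdk1, which encodes a synaptic adhesion protein and spans 974 kb (chr5:141241497-142215586), held 13, of which WT VEH 1 had 2, WT VEH 2 had 1, WT MET 1 had 7, WT MET 2 had 3 and the RH libraries none. Asic2, with a span of 1088 kb, held 11 from 5 libraries of both genotypes. Camta1, which encodes a calmodulin-binding transcription activator, held 8 and Cdh4, a cadherin gene, held 6, in each case from all 4 WT libraries and from no RH library. Slit3, an axon guidance gene, also held 8, from 3 WT libraries and RH MET 1. WT libraries hold 2146 of all 3562 members, and whether these genes differ between genotypes was not tested.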

How the data were processed

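H3K27me3 was mapped by chromatin immunoprecipitation sequencing in 8 libraries, and an input library was sequenced beside them. No intervals of the input were used here. Reads were processed with bcl2fastq 2.20 and BWA 0.7.12 on mm10, per the submitters' processing notes, which give no roles. Not given in the sources used here are the interval caller, its settings, the depth and how the input was used. Per the file headers, the authors deposited intervals and summits for each library and regions merged over all of them, so calls were made per library. The summit height is a score, a whole number with no unit given, as the authors deposited it. It was used to rank intervals within a library and to filter all libraries at 1 common limit. Heights of different libraries are also given side by side, and whether their scales match was not tested.

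Intervals overlapping by at least 1 bp were merged, and 18556 of the 18556 resulting regions matched a deposited merged region exactly. Autosomal regions with intervals of exactly 1 library were the members. The members and the gene lists were chosen with earlier results of these data known. Distances, gene overlaps (RefSeq genes, GRCm38.p6, the assembly of mm10) and promoter windows were computed with Python 3.11.15, numpy 2.4.6 and pandas 2.3.3. Of 416 list genes 412 were matched, and H19, Meg3, Nespas and Tpsab1 were not. The 15 lists and 10 families are described in the text by counts. Values per library were compared with exact permutation tests, two-sided, over 70 assignments of 4 libraries against 4 (smallest p 0.0286), and classes of regions within libraries with exact sign-flip tests over 256 assignments (smallest p 0.00781), adjusted by Benjamini-Hochberg over 9 tests at a threshold of 0.05. 2 of the 9 compared summit percentiles, which come from the same calls as the members, and their p-values are not given. The code was tested on simulated data. The rule for named genes took the 2 widest and the 2 highest members of each library, up to 4 touched genes per list, and anchors, and most of these are given. A gene counted in a list is not reported here by name. Same-numbered libraries did not deviate together in every pair of groups, so the replicate numbers were not used as pairs. Alternatives were a minimum summit height of 15, equal numbers of intervals, cover of at least 50% of a region, merging within 1000 bp, chromosome X included, each library left out, distances of 5 and 50 kb, any gene, and the replicate block. Members of WT VEH 1 were left out of the promoter share as an alternative chosen after seeing the data.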

Additional observations from a re-analysis of the deposited data

Results flagged for a closer look

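3 values of single-library regions stood far from the other 3 libraries of their genotype or treatment, among 32 sets of 4 libraries examined, and chance alone gives about 1 such value in 20 sets. The sets share libraries and are not independent.

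The highest summit of RH MET 1, at Car15, had a height of 115, and the highest summits of the other 3 metformin libraries had heights of 23 to 33. The share of single-library regions that overlapped a protein-coding gene was 39.5% in WT VEH 2, and 44.9% to 45.6% in the other 3 vehicle libraries. The share that held a promoter window was 14.4% in WT VEH 1, and 4.62% to 5.02% in the other 3 WT libraries. It rests on 29 regions. The median width of single-library regions was 5.4 kb in WT VEH 1 and 5.0 kb in WT MET 2, where the share was 4.62%, and the part of width in the difference was not tested.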

How the results depend on the processing

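The number of single-library regions was 3562, 2200 with a minimum summit height of 15, and 3421 to 3742 with 1 library left out. The 9 tested differences, in points, kept their direction and their side of the threshold in 106 recomputed values, turned in 20 and newly passed in 7. The cause of the turns was not tested. With a minimum summit height of 15, where RH VEH 1 keeps 1 member, the genotype difference was -6.98 for closeness within 10 kb and -11.0 for gene overlap. The treatment difference was then 0.555 for closeness, 12.9 for gene overlap and -5.72 for the summit percentile. The gene overlap relative to 2-library and all-8 regions was then -9.83 and -51.2 and passed. With equal numbers of intervals the genotype difference was -1.70 for closeness and -5.20 for the percentile, and the treatment difference 2.34 for gene overlap. With cover of 50% the treatment difference in closeness was 0.727, and closeness relative to 2-library regions (-1.71) and gene overlap relative to all-8 regions (-45.4) passed. With chromosome X the treatment difference in closeness was 0.657, and with 5 kb 0.783, where the difference from 2-library regions was -2.55 and passed. With any gene in place of protein-coding genes the treatment difference was 0.421, and overlap relative to 2-library and all-8 regions was -4.81 and -34.3 and passed. Each of these 7 passes had the smallest sign-flip p, 0.00781, adjusted 0.0352. A test at that p cannot pass alone, so each pass needed another of the 9 tests at the same p. Gene overlap relative to all-8 regions had this sign-flip p in the main setting too, adjusted 0.0703. Its passes thus come from the adjustment and not from a change in its own p.

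With 1 library left out, closeness ranged from -0.999 to 3.55 for genotype and from -3.13 to 1.71 for treatment, gene overlap from 3.30 to 7.14 and from -2.32 to -0.0757, and the percentile from -0.938 to 3.02 and from 0.912 to 3.92. Relative to 2-library regions closeness ranged from -3.72 to -1.02 and gene overlap from -3.06 to 0.857, and relative to all-8 regions gene overlap ranged from -39.3 to -37.5. The signs turned without WT MET 1, WT MET 2, RH VEH 1, RH MET 1 or RH MET 2.

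The replicate block changed no call. Closeness differed by 0.771 for genotype (exact permutation p = 0.778) and -0.283 for treatment (0.889), gene overlap by 4.99 (0.111) and -1.38 (0.722), and the percentile, given without a p, by 0.729 and 2.64, with 0.0556 the smallest p of 36 assignments. The differences between replicates 1 and 2 correlated across regions by -0.0424 to 0.313 over the 6 pairs of groups. Depth is unknown, so no counting interval bounds the absence of a call.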

Other observations

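Chromosome X, which was kept out of the members, held a larger share of single-library regions than any autosome. Of its 2720 regions, 1067 (39.2%) were called in 1 library, against 17.6% on chromosome 4, the lowest autosome, and 24.9% on chromosome 14, the highest. Per 10 Mb of the span between first and last region, chromosome X held 65.1 single-library regions, and chromosome 11, the densest autosome, 24.1. WT VEH 1 and 2 had 17 and 249 of them, WT MET 1 and 2 had 169 and 230, RH VEH 1 and 2 had 17 and 162, and RH MET 1 and 2 had 160 and 63. The order of the libraries was not that of the autosomes. WT VEH 2 had the most on chromosome X but 418 on autosomes, fewer than each metformin library, and RH VEH 2 had 162 on chromosome X beside 156 on all autosomes. The metformin and vehicle libraries, separate on the autosomes, overlapped on chromosome X.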
